A study of Mus musculus with 22 samples.

Results

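Apolipoproteins and the receptors that bind lipoproteins were followed in choroid plexus (ChP) of adult mice. The 10 genes were chosen by name, with earlier results of these data known, as *Apoe*, *Apod*, *Apoc1* and *Clu* for secreted apolipoproteins and *Lrp1*, *Lrp2*, *Lrp8*, *Vldlr*, *Sorl1* and *Scarb1* for receptors. They are 10 of 33984 genes in the files, and a gene's values are those of its most counted transcript. RNA sequencing covered 14 pools of mice in 7 groups of 2 pools, A and B. In the conditional model, *Otx2*lox/lox mice of strain S129, 3 months old, received Cre-Tat, a cell-permeable recombinase, or vehicle in the lateral ventricles. Their ChP was taken 15 days later from the lateral ventricles (LV) and the fourth ventricle (4V), with 5 mice in a Cre-Tat pool and 4 in a vehicle pool. Vehicle mice carry the floxed alleles as well. In the constitutive model, strain B6D2, only 4V ChP was pooled, from wildtype mice and from mice labelled Otx2 (+/-) and Otx2 (+/AA), and the study's methods describe the Otx2 (+/-) mice as GFP knock-in heterozygotes, lacking 1 copy in every cell. These heterozygotes and their wildtype littermates were also 3 months old, with 4 heterozygotes and 5 wildtype mice pooled, in duplicate. The study's methods do not describe the Otx2 (+/AA) mice. The models differ in strain, sequencing run and treatment at once, and these cannot be told apart.

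Apolipoproteins are the protein part of lipoprotein particles, which carry cholesterol and phospholipid between cells, and in the brain APOE and clusterin are the main ones in cerebrospinal fluid. Lipoprotein receptors bind such particles at the cell surface and take them up, sorting receptors such as SORL1 steer cargo between the Golgi and endosomes, and SR-BI, the product of *Scarb1*, exchanges cholesterol with particles without taking them up. ChP is a secretory epithelium over a stroma with vessels and macrophages, and it releases several of these carriers into the fluid that it makes.

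Pool totals ran from 22750019 to 50088408 counts over all transcripts in the conditional model and from 36934922 to 43790479 in the constitutive model. In the conditional model 14 of 16 file names carry another library number than the sample holding the file, and files were joined by number. Runs with the same number differed by a chi-square per degree of freedom of 1.002 to 1.032, and runs with different numbers by at least 3.86. *Otx2*, the targeted gene, went against the labels on its most counted transcript. Its level was 385 and 469 CPM, counts scaled to a common library size, in pools A and B of vehicle LV ChP and 1235 and 1024 in the LV pools labelled Cre-Tat. In 4V ChP it was 385 and 393 CPM with vehicle and 1202 and 1222 CPM in the pools labelled Cre-Tat. The constitutive model had 361 and 303 CPM in WT, 1027 and 885 in Otx2 (+/-) and 339 and 356 in Otx2 (+/AA). The count covers the whole transcript, so it does not check the exon deleted by Cre-Tat. The study measured that exon apart in both models, and it was not analysed here. For the Otx2 (+/-) mice, described as heterozygotes from birth, the cause of the higher count was not tested. Groups are called by their labels throughout. The lateral gene *Emx2* had no count in vehicle 4V pools, where 3 counts would be 0.222 and 0.277 CPM, and the hindbrain gene *Hoxb2* had none in vehicle LV pools, where 3 counts would be 0.143 and 0.149 CPM. The summed level of 9 epithelial markers, most of it *Ttr*, was 146965 to 175770 CPM in vehicle 4V pools and 66868 to 78664 CPM in those labelled Cre-Tat. The fall was from 186015 to 195274 CPM down to 101280 to 141280 CPM in LV ChP, and from 145980 to 155597 CPM down to 83048 to 95492 CPM between WT and Otx2 (+/-). Otx2 (+/AA) pools, at 116282 to 122108 CPM, also lay below WT, with none of the 9 markers called.

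Promoter windows of 300 bases, from 250 bases before a transcription start to 50 after it, were found in RefSeq (GRCm38.p6) for 7 of the 10 genes, with *Apoc1*, *Clu* and *Scarb1* lacking an entry. OTX2 binds the core TAATCC, which reads GGATTA on the other strand. Of the 13 windows of these genes, 1 held the core, the *Apoe* window whose start is that of the counted transcript, against 7.06% of all 32851 windows, or 2320. The match lies 80 bases before the start. The window is shown with the match in capitals, beside those of *Sorl1* and *Apod*, the genes with the largest rises, which hold no match. A match is a description of these letters and not a binding site.
Apoe, chr7:19699139-19699438, minus strand: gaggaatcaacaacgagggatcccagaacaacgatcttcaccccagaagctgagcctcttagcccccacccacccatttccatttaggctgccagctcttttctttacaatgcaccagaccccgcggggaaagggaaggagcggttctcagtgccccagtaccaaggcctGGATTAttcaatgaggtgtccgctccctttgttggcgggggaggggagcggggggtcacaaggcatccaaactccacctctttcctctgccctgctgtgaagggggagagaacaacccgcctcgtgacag
Sorl1, chr9:42124248-42124547, minus strand: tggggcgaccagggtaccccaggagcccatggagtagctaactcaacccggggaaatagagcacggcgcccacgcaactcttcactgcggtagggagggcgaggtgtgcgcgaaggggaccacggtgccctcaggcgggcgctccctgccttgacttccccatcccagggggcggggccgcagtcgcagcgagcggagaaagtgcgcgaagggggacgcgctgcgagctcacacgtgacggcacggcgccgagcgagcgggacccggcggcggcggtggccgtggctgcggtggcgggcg
Apod, chr16:31314759-31315058, minus strand: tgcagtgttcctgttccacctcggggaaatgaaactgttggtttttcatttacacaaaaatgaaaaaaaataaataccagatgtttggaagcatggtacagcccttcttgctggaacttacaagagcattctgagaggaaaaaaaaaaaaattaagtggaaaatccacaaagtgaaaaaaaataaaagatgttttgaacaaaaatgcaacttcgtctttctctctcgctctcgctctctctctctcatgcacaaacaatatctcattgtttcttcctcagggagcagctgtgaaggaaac

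The 10 genes spanned about 4 orders of magnitude in level per length. On the scale of CPM per kilobase of transcript, *Apoe* stood at 2531 ± 696 (SD, n = 2 pools) in vehicle 4V ChP and was 8th among all genes by that measure. *Clu*, which encodes the chaperone and apolipoprotein clusterin, followed at 785 ± 131, and *Apod*, a lipocalin that carries small lipids, at 47.4 ± 3.94. The receptors came next. *Vldlr* at 35.0 ± 2.05 and *Lrp1* at 34.7 ± 4.18 did not differ beyond their spread, and *Lrp8* stood at 10.1 ± 0.295. *Scarb1* at 4.80 ± 0.685, *Sorl1* at 3.81 ± 0.00119 and *Apoc1* at 3.10 ± 1.67 were lower, and the values of *Sorl1* and *Apoc1* overlapped. *Lrp2*, the endocytic receptor megalin, was last at 0.273 ± 0.0141, with 16 to 60 counts in a pool over all 14 pools. WT 4V ChP of the other run kept *Apoe* and *Clu* first and *Lrp2* last, but there *Lrp1* at 52.0 ± 0.267 lay above *Vldlr* at 28.6 ± 1.78. *Apoc1* stood at 25.2 ± 7.17 in WT, against 3.10 in vehicle 4V. The 10 genes together held between 0.441% and 0.730% of the gene counts of a pool. In the values by pool, *Sorl1* was higher in all pools labelled Cre-Tat or Otx2 (+/-) than in all others, while *Apoe*, *Clu* and *Vldlr* were lower than their controls in those pools and in Otx2 (+/AA).

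**Figure D1:**
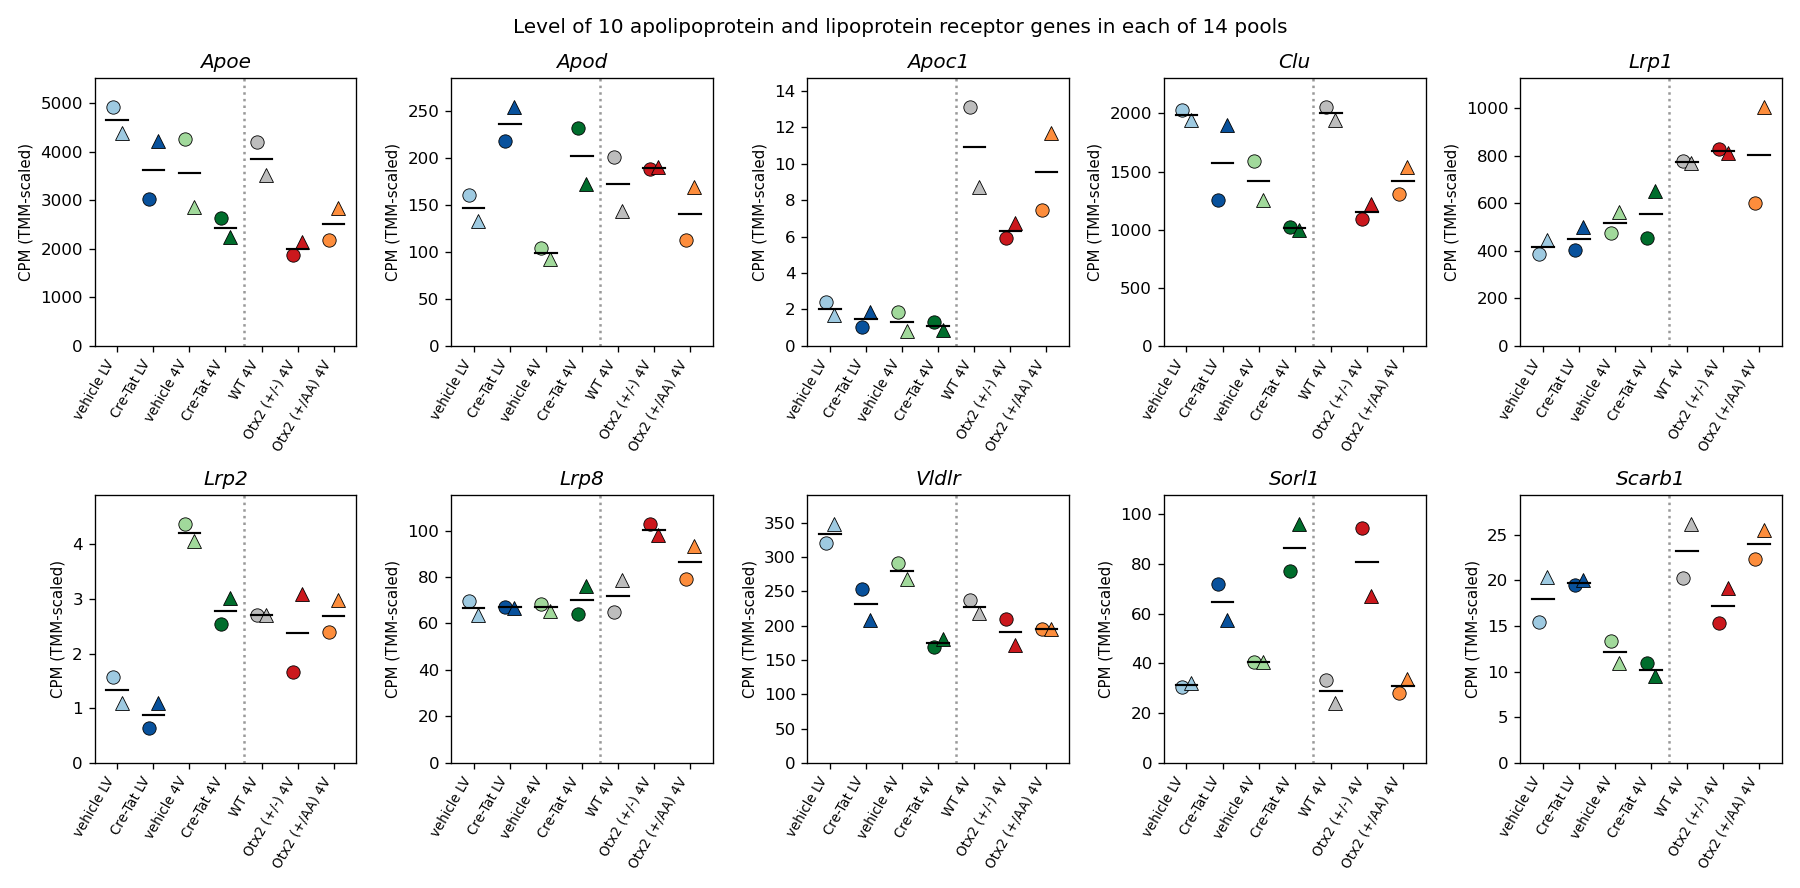
Level of each gene in CPM, scaled with TMM factors over 14 pools, with the axis from 0. Circles are pool A, triangles pool B, bars the mean of 2 pools, and the dotted line parts the conditional from the constitutive model. *Sorl1* lay at 57.5 to 96.1 CPM in the pools labelled Cre-Tat or Otx2 (+/-) and at 24.1 to 40.8 CPM in the rest.

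All 10 genes passed the filter on low counts in every comparison. With edgeR's quasi-likelihood test and Benjamini-Hochberg adjustment over all genes, 2 of 10 differed between Cre-Tat and vehicle in LV ChP, where 3.24% of 15002 genes did. In 4V ChP 3 of 10 differed, against 10.7% of 14550 genes. In the constitutive model 3 of 10 differed between Otx2 (+/-) and WT, against 3.53% of 14573 genes, and 0 of 10 between Otx2 (+/AA) and WT, against 0.345% of 14494 genes. Of these last 10, 2 had an unadjusted p under 0.05, as had 8.91% of all genes, and DESeq2 called 2. Pools of the groups did not overlap for 5 of the 10 genes in LV ChP (42.5% of all genes), 6 in 4V ChP (50.4%), 8 in Otx2 (+/-) (49.2%) and 4 in Otx2 (+/AA) (38.1%). The median log2 fold change of the 10 genes for LV and 4V ChP was -0.16 and -0.30, and it was -0.22 for Otx2 (+/-) and -0.12 for Otx2 (+/AA), against medians over all genes of 0.0044, 0.0061, -0.00070 and -0.0056. Both mutant comparisons use the same WT pools.

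**Figure D2:**
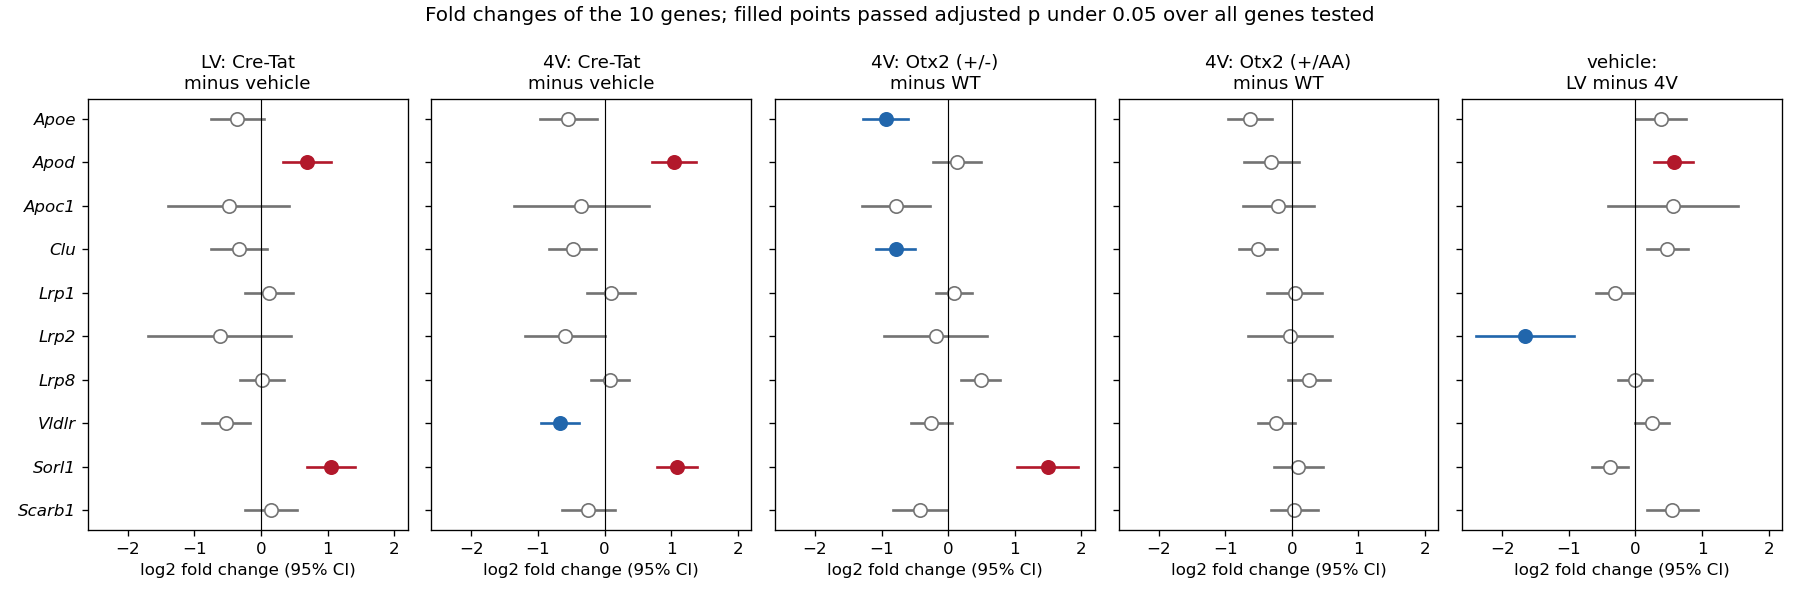
Log2 fold change of each gene with its 95% confidence interval in 5 comparisons of 2 pools against 2. Red points are higher, blue points lower at an adjusted p under 0.05, and open points did not pass. *Sorl1* passed in 3 of the 4 comparisons of a labelled change of *Otx2* with its control, and no gene passed for Otx2 (+/AA).

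*Sorl1*, the VPS10-domain sorting receptor that binds APOE and directs the amyloid precursor protein away from endosomes, showed the largest rise of the 10. It lies on chromosome 9 from 41964720 to 42124297, minus strand, and was counted on Sorl1-201, with 48 exons and 10715 bases. Its level was 30.6 and 32.3 CPM in vehicle LV ChP and 72.1 and 57.5 CPM in the pools labelled Cre-Tat. In 4V ChP it was 40.8 in each vehicle pool and 77.2 and 96.1 CPM after Cre-Tat. Every pool labelled Cre-Tat was above every vehicle pool, in either ventricle. On the log2 scale *Sorl1* rose by 1.05 ± 0.17 (SE) in LV ChP (edgeR adjusted p 0.00357) and by 1.09 ± 0.14 in 4V ChP (adjusted p 6e-05). In the constitutive model *Sorl1* stood at 33.4 and 24.1 CPM in WT, 94.3 and 67.3 CPM in Otx2 (+/-), and 28.1 and 33.8 CPM in Otx2 (+/AA). The Otx2 (+/-) pools lay above all others of that model, while the Otx2 (+/AA) pools overlapped WT. The log2 fold change against WT was 1.49 ± 0.20 for Otx2 (+/-) (edgeR adjusted p 0.0051), and 0.093 ± 0.17 for Otx2 (+/AA), with a 95% confidence interval from -0.27 to 0.46. Set directly against each other, Otx2 (+/-) exceeded Otx2 (+/AA) by 1.39 ± 0.18 (adjusted p 0.00123), the single call among the 10 in a comparison where 2.7% of 14578 genes differed and where pools did not overlap for 7 of the 10 genes against 44.5% of all. *Sorl1* was called in each of these 4 comparisons under every alternative with files joined by number. Exons of the noncoding gene *Gm16214* on the opposite strand cover 185 bases of the transcript, or 1.73%, and that gene had 13 counts in all.

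*Apod* rose in the conditional model. The gene lies on chromosome 16 from 31296192 to 31314808, minus strand, and was counted on Apod-203, of 2074 bases in 6 exons. LV ChP had 160 and 133 CPM with vehicle and 218 and 254 CPM with Cre-Tat, and 4V ChP had 104 and 92.5 CPM with vehicle and 232 and 172 CPM with Cre-Tat. The groups did not overlap in either ventricle. *Apod* was higher by 0.69 ± 0.17 on the log2 scale in LV ChP (edgeR adjusted p 0.0389) and by 1.04 ± 0.16 in 4V ChP (adjusted p 0.000227). The call in LV ChP was lost without vehicle pool A (adjusted p 0.125) or vehicle pool B (adjusted p 0.467). WT pools had 201 and 144 CPM, Otx2 (+/-) pools 188 and 190 CPM, and Otx2 (+/AA) pools 112 and 169 CPM. The 3 groups of the constitutive model overlapped except for Otx2 (+/-) and Otx2 (+/AA). Otx2 (+/-) differed from WT by 0.14 ± 0.16, with an interval from -0.22 to 0.50, and Otx2 (+/AA) by -0.31 ± 0.19, neither passing the test. The change with Cre-Tat in 4V exceeded that with Otx2 (+/-) by 0.89 ± 0.24, adjusted p 0.101. That difference passed with DESeq2 (adjusted p 0.0194), with total counts as the scale (0.0334), with no filter on low counts (0.000551), without Cre-Tat pool B (0.0422) and without WT pool B (0.048), so its call depends on the setting.

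*Apoe*, for the main cholesterol carrier of the brain, and *Clu* were lower in Otx2 (+/-). *Apoe* lies on chromosome 7 from 19696109 to 19699188, minus strand, counted on Apoe-206 with 4 exons and 1408 bases, and *Clu* on chromosome 14 from 65968483 to 65981547, plus strand, counted on Clu-201 with 9 exons and 1810 bases. *Apoe* was 4200 and 3516 CPM in WT, 1872 and 2141 CPM in Otx2 (+/-), and 2187 and 2845 CPM in Otx2 (+/AA). *Clu* was 2055 and 1946 CPM in WT, 1092 and 1219 CPM in Otx2 (+/-), and 1303 and 1536 CPM in Otx2 (+/AA). For each gene both mutant groups lay below WT with no overlap, a separation in either direction that 49.2% and 38.1% of all genes showed. *Apoe* fell by 0.94 ± 0.15 on the log2 scale in Otx2 (+/-) (edgeR adjusted p 0.0105), and *Clu* fell by 0.79 ± 0.13 (adjusted p 0.0125). In Otx2 (+/AA) *Apoe* differed from WT by -0.63 ± 0.15 (adjusted p 0.117) and *Clu* by -0.50 ± 0.13 (adjusted p 0.16), so neither passed, although DESeq2 called both (adjusted p 0.018 and 0.0374). The direct difference between Otx2 (+/-) and Otx2 (+/AA) was -0.32 ± 0.17 for *Apoe* and -0.29 ± 0.15 for *Clu*, and neither passed.

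In the conditional model the falls of *Apoe* and *Clu* did not pass the test. *Apoe* was 4922 and 4390 CPM in vehicle LV ChP against 3029 and 4218 CPM after Cre-Tat, and 4257 and 2872 CPM in vehicle 4V ChP against 2634 and 2242 CPM. *Clu* was 2028 and 1946 CPM against 1251 and 1899 CPM in LV ChP, and 1589 and 1252 CPM against 1027 and 1001 CPM in 4V ChP. Every pool labelled Cre-Tat lay below every vehicle pool of its ventricle for both genes, but by little for pool B in LV ChP, and vehicle 4V pool B, the pool with the fewest gene counts, was well under pool A. The log2 fold changes were -0.36 ± 0.19 and -0.33 ± 0.19 in LV ChP. In 4V ChP they were -0.54 ± 0.20 for *Apoe* (adjusted p 0.106) and -0.48 ± 0.17 for *Clu* (adjusted p 0.0771). DESeq2 called both in 4V ChP, with adjusted p of 0.0436 and 0.0275, and in LV ChP both were called without Cre-Tat pool B, with edgeR adjusted p of 0.0153 and 0.0103. In bulk tissue, fewer cells of a type and less RNA per cell cannot be told apart. The summed epithelial markers given above were lower in the same groups, and 8 of 9 of them fell in 4V ChP with Cre-Tat and 3 of 9 in Otx2 (+/-), with *Otx2* itself, which is on the list, higher in each. *Ttr*, which makes up most of that sum, is a known direct target of OTX2 per the study. Whether the lower sums went with fewer epithelial cells was not tested. The part of epithelial content in the levels of *Apoe* and *Clu* was not tested.

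*Apoc1*, a small inhibitor of lipoprotein uptake, lies on chromosome 7 at 19689481 to 19692660, with 3448 bases between it and *Apoe*, on the same strand. Its counts were low in the conditional model, 9 to 50 per pool, and 117 to 251 in the constitutive model. WT pools had 13.1 and 8.71 CPM, Otx2 (+/-) pools 5.90 and 6.73 CPM, and Otx2 (+/AA) pools 7.45 and 11.7 CPM. Otx2 (+/-) lay below WT without overlap, while Otx2 (+/AA) overlapped it. The difference between Otx2 (+/-) and WT was -0.79 ± 0.22 (adjusted p 0.103), past the threshold without WT pool B (adjusted p 0.000432) or with pool letters blocked (0.00177). In LV and 4V ChP of the conditional model the log2 differences were -0.49 ± 0.42 and -0.35 ± 0.48. The intervals, from -1.39 to 0.42 and from -1.36 to 0.67, include a fall as large as that in Otx2 (+/-).

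Fold changes moved with transcript length in several comparisons. Between Otx2 (+/-) and WT the median log2 fold change was -0.13 over 1500 genes of up to 1000 bases, -0.10 over 2874 genes from there to 2000 bases and 0.14 over 2775 genes of over 5000 bases. *Apoc1*, *Apoe* and *Clu* are in the shorter classes and *Sorl1* in the longest. In the direct comparison of Otx2 (+/-) with Otx2 (+/AA) these medians were -0.085, -0.10 and 0.12, and for the model interaction they were 0.10, 0.14 and -0.14. Between the vehicle pools of the ventricles they were 0.063, 0.052 and -0.059, while with Cre-Tat in 4V ChP the classes lay between -0.027 and 0.028. Pools of the same group also differed by length. For genes of up to 1000 bases, the median log2 CPM, centred within the model, was 0.034 and -0.19 in vehicle 4V pools A and B. It was 0.045 and -0.21 in Cre-Tat 4V pools, -0.035 and 0.26 in Cre-Tat LV pools and 0.091 and 0.078 in vehicle LV pools. The part of length in the values of single genes was not tested.

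*Vldlr* and *Lrp8* encode the receptors for VLDL and APOE that also bind reelin. *Vldlr* lies on chromosome 19 from 27216484 to 27254231 and was counted on Vldlr-207 with 7971 bases. It was 321 and 348 CPM in vehicle LV ChP against 254 and 209 CPM with Cre-Tat, and 291 and 268 CPM in vehicle 4V ChP against 169 and 181 CPM. The groups did not overlap in either ventricle. *Vldlr* fell by 0.67 ± 0.14 on the log2 scale in 4V ChP (edgeR adjusted p 0.00329), a call that was lost without vehicle pool A (adjusted p 0.0632). In LV ChP the difference of -0.53 ± 0.17 did not pass (adjusted p 0.118), though DESeq2 called it (adjusted p 0.0373). Between WT at 238 and 218 CPM and Otx2 (+/-) at 209 and 171 CPM the groups did not overlap, and the difference was -0.26 ± 0.13 (adjusted p 0.358). Otx2 (+/AA) pools, at 196 and 195 CPM, also lay below WT without overlap, at -0.23 ± 0.13 (adjusted p 0.684), and Otx2 (+/-) differed from Otx2 (+/AA) by -0.032 ± 0.15. *Lrp8* showed no call. Its levels of 63.6 to 76.2 CPM overlapped across the conditional model, and the log2 differences in LV and 4V ChP were 0.0099 ± 0.16 and 0.073 ± 0.14. In the constitutive model *Lrp8* was 64.8 and 78.7 CPM in WT, 103 and 97.9 CPM in Otx2 (+/-), and 79.2 and 93.4 CPM in Otx2 (+/AA). Both mutant groups were above WT without overlap, and for Otx2 (+/-) the difference was 0.49 ± 0.13 (adjusted p 0.0859), which DESeq2 called (adjusted p 0.0476), as did edgeR with the pool letter as a block (0.000549).

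*Lrp1*, the large endocytic receptor of many ligands, *Lrp2* and *Scarb1* had no call for any label of *Otx2*. *Lrp1* ranged from 388 to 652 CPM in the conditional model and from 602 to 1004 CPM in the constitutive model, and the lowest and highest of the latter were the pools A and B of Otx2 (+/AA). Its log2 differences were 0.12 ± 0.17 in LV ChP, 0.10 ± 0.17 in 4V ChP, 0.085 ± 0.12 in Otx2 (+/-) and 0.043 ± 0.19 in Otx2 (+/AA). The widest of these 95% intervals was from -0.37 to 0.45. *Lrp2* changed by -0.62 ± 0.50 with Cre-Tat in LV ChP and by -0.59 ± 0.29 in 4V ChP, on 16 to 60 counts per pool. *Scarb1* lay between 9.52 and 26.1 CPM over all pools. It was lower in Otx2 (+/-), at 15.3 and 19.1 CPM, than in WT, at 20.2 and 26.1 CPM, without overlap, and the difference of -0.43 ± 0.18 did not pass (adjusted p 0.249), but passed with the pool letter as a block (0.0187).

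The ventricles were compared in the vehicle pools, which also serve as controls above. Per the study, LV and 4V ChP were dissected separately from the injected mice, so LV and 4V pools can share animals. Whether pools of the same letter held the same mice is not stated, and the test took all pools as independent. Of the 10 genes 2 differed, against 7.44% of 14561 genes, and 8 had pools that did not overlap, against 53.7%. *Apod*, with the vehicle values given above, was higher in LV than in 4V ChP by 0.57 ± 0.13 on the log2 scale (edgeR adjusted p 0.0203). This call was lost without LV pool A (adjusted p 0.0704), without 4V pool B (0.182), with total counts as the scale (0.0989) and with all 4 groups in 1 fit (0.0708). *Lrp2* was 1.58 and 1.09 CPM in LV ChP and 4.37 and 4.06 CPM in 4V ChP, so the groups stood apart. It was lower in LV by a log2 difference of -1.65 ± 0.34 (adjusted p 0.0103), on 22 to 59 counts per pool, and the call was lost without 4V pool A (adjusted p 0.0699) or 4V pool B (0.062). Among the genes that did not pass, *Clu* was nearest, at 0.48 ± 0.14 (adjusted p 0.0549), then *Scarb1* at 0.55 ± 0.18 (adjusted p 0.0801) and *Sorl1* at -0.38 ± 0.12 (adjusted p 0.0807). DESeq2 called *Clu* (adjusted p 0.0146). Without 4V pool A *Apoe* and *Clu* passed (edgeR adjusted p 0.00989 and 0.0139), with *Apoe* at 0.71 in place of 0.38, and without LV pool A *Scarb1* did (0.00532). With total counts as the scale the calls were *Lrp2*, *Lrp1* (0.0363) and *Sorl1* (0.0218), all 3 lower in LV ChP, with the median of all genes at -0.19. The 6 endothelial markers summed to 158 to 184 CPM in LV and 98.4 to 112 CPM in 4V vehicle pools, with 3 higher in LV. For 12 macrophage markers the sums were 88.7 to 104 against 71.1 to 75.5 CPM, with 1 higher. Stromal sums were 589 to 625 against 495 to 517 CPM, with 1 of 6 higher. Astrocyte sums were lower in LV, 89.6 to 92.8 against 115 to 136 CPM, with 1 of 5 higher and 1 lower. The part of cell content in these differences was not tested.

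The response to Cre-Tat was then compared between ventricles, again with the pools taken as independent. None of the 10 genes had an interaction past the threshold, with adjusted p of 1 in round figures for each, against 1 call among 15565 genes, 0.00642%. No gene of the 10 had an unadjusted p under 0.05, which 2.67% of all genes had, and DESeq2 called none of the 10. For *Sorl1* the LV change minus the 4V change was -0.042 ± 0.22, with an interval from -0.51 to 0.43, for *Apod* -0.35 ± 0.24 and for *Vldlr* 0.15 ± 0.21. Between the models, with Cre-Tat and Otx2 (+/-) in 4V ChP, 0 of 10 genes passed against 1.64% of 15327, and 3 had an unadjusted p under 0.05 against 13% of all. DESeq2 called 1 gene, *Apod*. The Cre-Tat change minus the Otx2 (+/-) change was 0.38 ± 0.27 for *Apoe*, 0.29 ± 0.21 for *Clu*, -0.43 ± 0.19 for *Vldlr* and -0.41 ± 0.26 for *Sorl1*.

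The called genes were called on most of their annotated transcripts in the main comparisons. Transcripts of a gene share exons and reads, so they are not independent. All 10 transcripts of *Apoe* and all 9 of *Clu* were lower in Otx2 (+/-) at an adjusted p under 0.05, with log2 fold changes of -0.94 to -0.87 and -0.78 to -0.65. With Cre-Tat in 4V ChP all 6 transcripts of *Apod* were higher, by 0.98 to 1.07, and all 8 of *Vldlr* lower, by -0.84 to -0.60. *Sorl1* had 4 transcripts, of which 3 were higher in LV ChP, 3 in 4V ChP and 3 in Otx2 (+/-), and the remaining 1 had a positive value in each. *Lrp8*, not called on its most counted transcript, had 4 of 12 transcripts higher in Otx2 (+/-), with all 12 values between 0.33 and 0.56. The transcripts of *Lrp1*, *Lrp8* and *Scarb1* included values of either sign in the conditional model, as did those of *Lrp1* in both mutant comparisons, with 7 positive and 3 negative in each.

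**Figure D3:**
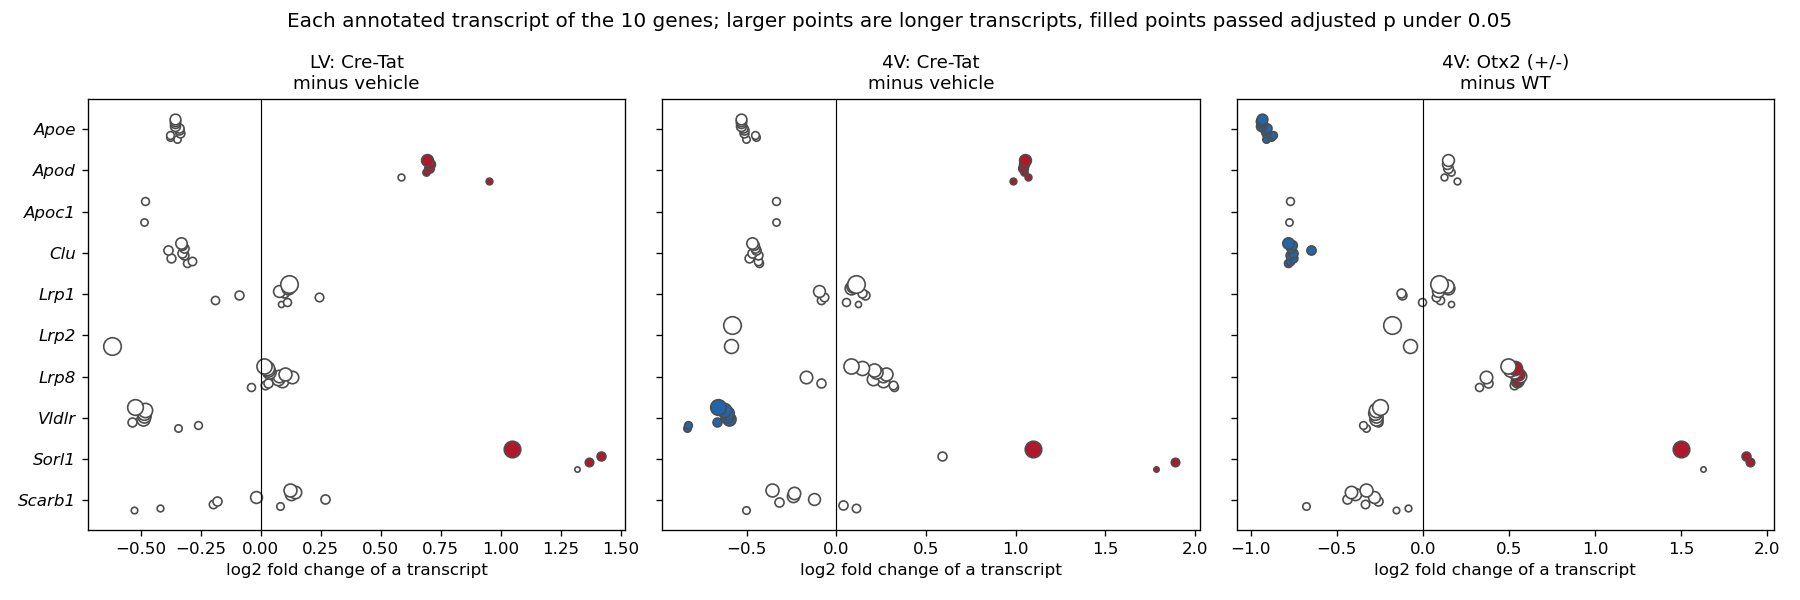
Log2 fold change of each tested transcript of the 10 genes, drawn above or below the line of its gene, with size by transcript length. Filled points passed an adjusted p under 0.05, red for higher and blue for lower. The 10 transcripts of *Apoe* lay together at -0.94 to -0.87 in Otx2 (+/-), and those of *Sorl1* lay at 0.59 or above in all 3 comparisons.

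The other genes of the pathway were taken from 7 lists with 77 genes. With Cre-Tat 4 of 53 tested rose in LV ChP and none fell, 7.55% against 3.24% of all genes, and in 4V ChP 5 of 52 rose and 4 fell, 17.3% against 10.7%. For Otx2 (+/-) 2 of 55 rose and 4 fell, 10.9% against 3.53%, and for Otx2 (+/AA) 0 of 55 were called against 0.345%. Among the other VPS10 receptors, relatives of *Sorl1*, 2 of 4 were tested. *Sorcs2*, a receptor for proneurotrophins, was 7.02 and 7.26 CPM in vehicle LV ChP and 18.1 and 23.1 CPM with Cre-Tat, and it rose by 1.53 ± 0.19 (edgeR adjusted p 0.000507). It rose by 1.34 ± 0.16 in 4V ChP and by 1.18 ± 0.16 in Otx2 (+/-). *Sort1*, which encodes sortilin, rose by 0.67 ± 0.14 in 4V ChP (adjusted p 0.00388) and differed by 0.30 ± 0.20 in LV ChP and 0.25 ± 0.11 in Otx2 (+/-), without a call.

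Of 10 other lipoprotein receptors *Lrp1b* rose in 3 comparisons and no other was called in them. *Lrp1b*, a large relative of *Lrp1*, was 9.36 and 8.65 CPM in vehicle LV ChP against 19.4 and 18.9 CPM with Cre-Tat, a rise of 1.09 ± 0.18 (edgeR adjusted p 0.00357). The rises in 4V ChP, 1.36 ± 0.31, and in Otx2 (+/-), 1.76 ± 0.34, also passed. Of the receptor chaperones and adaptors, 9 or 10 of 12 were tested, and *Lrpap1*, the chaperone that guards lipoprotein receptors in the endoplasmic reticulum, was the single call. It was 313 and 266 CPM in vehicle 4V ChP, 182 and 173 CPM with Cre-Tat, 448 and 423 CPM in WT and 284 and 296 CPM in Otx2 (+/-). *Lrpap1* fell by 0.70 ± 0.14 with Cre-Tat in 4V ChP (adjusted p 0.00306) and by 0.58 ± 0.11 in Otx2 (+/-) (adjusted p 0.0296).

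Among 16 genes of lipid efflux and lipoprotein remodelling, *Lcat* rose in the conditional model while *Npc2*, *Abca7* and *Pltp* were lower in 4V comparisons. *Lcat*, whose enzyme esterifies cholesterol on lipoproteins, was 3.72 and 3.88 CPM in vehicle LV ChP against 11.2 and 13.7 CPM with Cre-Tat, and 8.52 and 7.10 CPM against 26.9 and 25.5 CPM in 4V ChP. It rose by 1.71 ± 0.22 and 1.74 ± 0.18 (edgeR adjusted p 0.000581 and 3.86e-06). *Npc2*, which hands cholesterol out of lysosomes, fell by 0.74 ± 0.14 with Cre-Tat in 4V ChP and by 0.86 ± 0.12 in Otx2 (+/-), and *Abca7*, a lipid transporter, fell by 0.62 ± 0.14 and 0.58 ± 0.12. *Pltp*, which encodes the phospholipid transfer protein, fell by 0.72 ± 0.12 in Otx2 (+/-). *Soat1*, for an enzyme that esterifies cholesterol inside cells, fell by 0.49 ± 0.13 in 4V ChP and is named outside the rule, after its value was seen, as the last of the 9 calls there. Of 10 other scavenger receptors *Colec12*, from vessels and stroma, rose by 0.75 ± 0.16 in LV ChP and by 1.94 ± 0.14 in 4V ChP. None of 8 lipid-sensing transcription factors, LXR, SREBP and PPAR genes among them, passed in these 4 comparisons. Of 17 other apolipoproteins 3 to 5 were tested and none was called. Summed levels of 12 macrophage markers were 71.1 to 75.5 CPM in vehicle 4V ChP and 115 to 162 CPM with Cre-Tat, with 8 of 12 higher, and none of the 12 was at 0 in any group. In LV ChP they were 88.7 to 104 CPM with vehicle and 156 to 177 CPM with Cre-Tat, with 4 of 12 higher. Summed levels of 4 ependymal markers were 116 to 132 CPM and 192 to 238 CPM in LV ChP, and 116 to 143 CPM and 250 to 251 CPM in 4V ChP, with 2 higher in each and none at 0. Of 5 astrocyte markers 3 were higher and 1 lower with Cre-Tat in 4V ChP, at sums of 115 to 136 CPM and 122 to 127 CPM. In LV ChP 1 was higher and 1 lower, at 89.6 to 92.8 CPM and 88.9 to 96.7 CPM. In Otx2 (+/-) 2 were higher and 0 lower, at sums of 158 to 168 CPM in WT and 168 to 236 CPM in Otx2 (+/-), which overlapped. Summed levels of 6 stromal markers were 725 to 798 CPM in WT and 1004 to 1107 CPM in Otx2 (+/-), with 2 higher and none at 0. These lists did not move alike in every comparison. Macrophage sums for WT and Otx2 (+/-) overlapped, at 131 to 137 and 135 to 148 CPM, with 1 of 12 higher. Ependymal sums of these groups overlapped too, at 198 to 224 and 177 to 227 CPM, without a call. Otx2 (+/AA) pools had macrophage sums of 160 to 176 CPM, above WT without overlap, with 10 of 12 values positive and none called. Their stromal sums, 652 to 773 CPM, overlapped WT. Set against Otx2 (+/AA), Otx2 (+/-) had 11 of 12 macrophage values negative, none called, and 2 of 6 stromal markers higher. Cre-Tat pools had lower stromal sums than vehicle pools, 560 to 569 against 589 to 625 CPM for LV ChP. The 4V values were 440 to 488 against 495 to 517 CPM, with 1 marker higher and 1 lower per ventricle. The part of these cell types in the rises of *Sorl1*, *Apod* and the pathway genes was not tested.

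**Figure D4:**
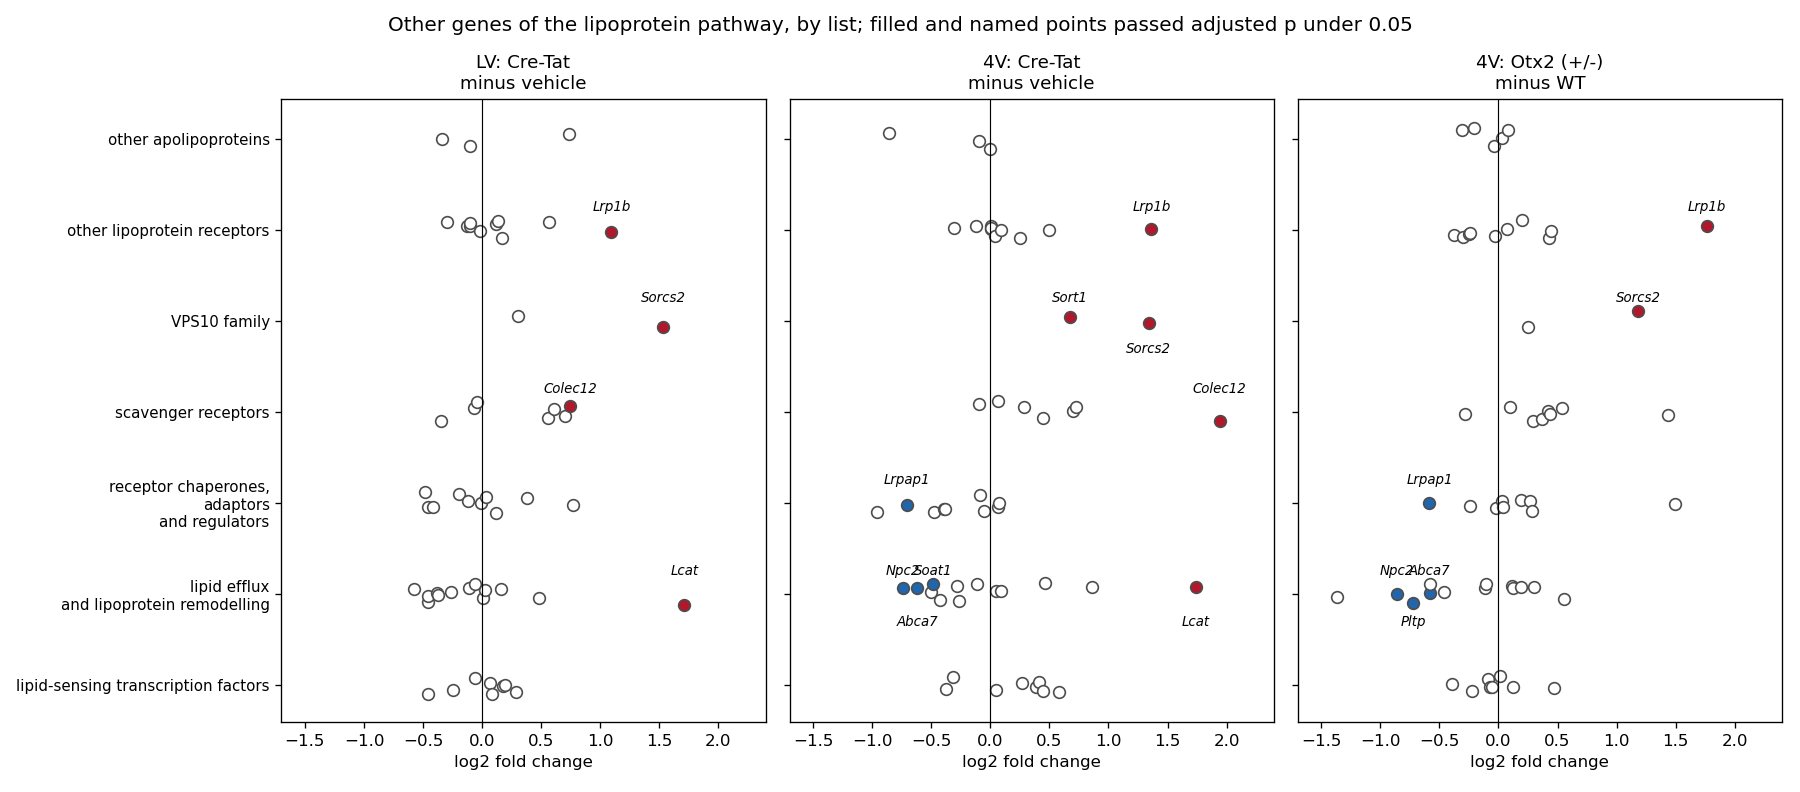
Log2 fold change of each tested gene of the 7 pathway lists in 3 comparisons. Filled and named points passed an adjusted p under 0.05, red for higher and blue for lower. *Sorcs2* and *Lrp1b* rose in all 3 comparisons, and *Lcat* and *Colec12* rose in the comparisons of the conditional model.

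Between the vehicle pools of the ventricles 6 of 52 pathway genes tested differed, 11.5% against 7.44% of all genes, 4 with more in LV and 2 with more in 4V ChP. *Lrp11*, *Pltp*, *Colec12* and *Rxra*, a partner of the LXR and PPAR factors, were higher in LV by log2 differences of 1.17 ± 0.25, 0.66 ± 0.16, 0.66 ± 0.12 and 0.46 ± 0.12. *Lcat* and *Sorcs2* were lower, at -1.05 ± 0.23 and -1.01 ± 0.18. The marker sums of these pools are given above, and the part of cell content in these differences was not tested.

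Likeness of pattern was measured as Pearson's r of log2 CPM, centred within each model, over the 14 pools, among genes with a mean count above 100. Pools share depth, RNA quality and the group differences above, so r is a description. *Apoe* was most like *Ergic3* (0.98) and *Clu* (0.97), and *Clu* most like *Ifnar2* (0.99) and *Ergic3* (0.99). *Sorl1* was most like *Rassf2* (0.94) and *Otx2* (0.94), *Vldlr* like *Clcn5* (0.97), and *Apod* like *Igfbp7* (0.92) and *Cox5a* (0.90). Within the 10 genes the highest r after *Apoe* and *Clu* was that of *Apoe* and *Apoc1*, 0.89, and of *Apoc1* and *Clu*, 0.83. For *Apoc1* the nearest genes were *Jtb* and *Mrpl20* (0.97 and 0.96), for *Lrp1* *Kmt2d* and *Dvl3* (0.95 and 0.93), for *Lrp2* *Cltb* and *Cul7* (0.95 and 0.95), for *Lrp8* *Crim1* and *Pdgfc* (0.87 and 0.86) and for *Scarb1* *Mif4gd* and *Cenpb* (0.94 and 0.94).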

How the data were processed

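The authors deposited counts of reads per Ensembl transcript, not normalized, for each sequencing run. Per the labels, total RNA was depleted of ribosomal RNA and sequenced in reads of 50 bases with a strand-specific kit. The study's methods name polyadenylated RNA instead, and the strand setting of the counting is not given in the sources used here. The submitters' processing notes name bcl2fastq 1.8.4, Bowtie 0.12.9, SAMtools, HTSeq 0.5.3 and DESeq 1.8.3, with genome build mm10.

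Both runs of a library of the conditional model were summed. Of 95533 transcripts, 82807 matched GENCODE vM21, with 89.5% of counts, and the rest were not used. Each of 33984 genes was given by its transcript with the most counts. TMM factors and filterByExpr were applied, and edgeR 4.0.16 (R 4.3.3) fitted its quasi-likelihood test to the pools compared, with Benjamini-Hochberg adjustment and a threshold of 0.05. The fit was tested on simulated counts with 200 changed genes. Separate alternatives used DESeq2 1.42.0, other scales and filters, summed transcripts, a block by pool letter, the files as attached, and each pool left out. The pools are replicates by their labels, and with 2 against 2 an exact permutation test of 1 gene cannot go below a p of 0.333 (two-sided). Counting error alone is covered by floors of 3 counts.

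The members and the lists were chosen with earlier results of these data known. The genes named are the 10 members, *Otx2*, *Emx2*, *Hoxb2*, up to 3 called genes per list and comparison with the largest change, and the 2 most like each member. Lengths, positions and exons are those of GENCODE vM21 (GRCm38), and promoters are from RefSeq. A gene of the lists and a gene of the likeness measure are not reported here.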

Additional observations from a re-analysis of the deposited data

Results flagged for a closer look

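*Sorl1* was set apart because Otx2 (+/-) and Otx2 (+/AA), each in 4V ChP, differed directly, by 1.39 on the log2 scale with an edgeR adjusted p of 0.00123. The same direct difference was 1.13 ± 0.18 for *Sorcs2* (adjusted p 0.00579), at 25.3 and 21.0 CPM in Otx2 (+/-) and 9.51 and 11.8 CPM in Otx2 (+/AA). It was 1.74 ± 0.30 for *Lrp1b* (adjusted p 0.00828), at 5.40 and 9.76 CPM against 2.44 and 2.09 CPM. For *Stab2*, a scavenger receptor of sinusoidal endothelium, the fitted difference was 6.89 (adjusted p 0.00145), but its pools were far apart within groups, at 7.82 and 51.9 CPM in Otx2 (+/-), 0.417 and 21.8 CPM in WT and 0.234 and 0.261 CPM in Otx2 (+/AA). These 4 are all calls among the 10 members and the pathway genes in that comparison.

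Between models, the change with Cre-Tat exceeded that with Otx2 (+/-) in 4V ChP for *Colec12*, by 1.51 (adjusted p 0.00083), and for *Lcat*, by 1.18 (adjusted p 0.0276), both by the interaction term of edgeR. *Colec12* was 96.9 and 102 CPM with vehicle, 379 and 384 CPM with Cre-Tat, 128 and 117 CPM in WT and 169 and 159 CPM in Otx2 (+/-). *Lcat* was 7.77 and 7.08 CPM in WT and 9.74 and 12.1 CPM in Otx2 (+/-). Model, strain and run cannot be told apart here.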

How the results depend on the processing

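Each group had 2 pools, which limits what a count of calls can show. Of 11 calls among the 10 genes, 7 held under every alternative with files joined by number. These were *Sorl1* in LV ChP, 4V ChP, Otx2 (+/-) against WT and against Otx2 (+/AA), *Apod* in 4V ChP and *Apoe* and *Clu* in Otx2 (+/-). None of the 11 reversed under those alternatives. With files joined as attached, *Sorl1* turned in LV and 4V ChP and *Vldlr* in 4V ChP, as given below. A group left with 1 pool was assumed to vary like the other groups of its fit. Unless a cause follows from the construction, as with fewer pools, the cause was not tested.

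The number of members called over omissions of a pool was 1 to 4 in LV ChP, 2 to 5 in 4V ChP, 3 to 5 in Otx2 (+/-), 0 to 1 in Otx2 (+/AA), 1 to 2 between the mutants, 0 to 3 between ventricles and 0 to 1 for the model interaction. All genes called over omissions of a pool numbered 321 to 737, 905 to 1665, 402 to 881, 35 to 382, 403 to 790, 400 to 1968 and 80 to 246 in that order, and 0 to 3 for the ventricle interaction. The pools whose omission ended a call are named beside *Apod*, *Vldlr* and *Lrp2*. Calls were gained in Otx2 (+/AA) for *Apoe* without its pool B (adjusted p 0.0248) or WT pool B (0.0162), in 4V ChP for *Apoe* without Cre-Tat pool A (0.00682) or vehicle pool B (0.0332) and for *Clu* without Cre-Tat pool A (0.0471), in LV ChP for *Vldlr* without Cre-Tat pool A (0.0289), in Otx2 (+/-) for *Lrp8* without WT pool B (0.0305), between the mutants for *Apod* without Otx2 (+/AA) pool B (0.00927) and *Apoc1* without its pool A (0.0137), and for the model interaction of *Apod* without Cre-Tat pool B (0.0422) or WT pool B (0.048). DESeq2 called 5 members in 4V ChP, 2 in Otx2 (+/AA) and 1 for the model interaction, and over all genes 1149 in 4V ChP against 1554, 122 in Otx2 (+/AA) against 50, 373 for the model interaction against 252 and 5 for the ventricle interaction against 1. Without a filter on low counts the members called were 5 in 4V ChP, 2 in Otx2 (+/AA), 5 between ventricles and 1 for the model interaction, and all genes called 874 in LV ChP, 390 in Otx2 (+/AA), 1840 between ventricles, 31 for the ventricle and 627 for the model interaction. With transcripts summed per gene 22 were called in Otx2 (+/AA), 248 between the mutants, 0 for the ventricle and 166 for the model interaction. A mean count above 10 left 0 for the ventricle interaction. With all groups in 1 fit 18 were called in Otx2 (+/AA) and 717 between ventricles, with 1 member.

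Total counts as the scale moved the median of all genes by 0.17 in LV ChP, 0.15 in 4V ChP, 0.11 in Otx2 (+/AA), -0.19 between ventricles and 0.12 for the model interaction. Higher and lower calls were then 396 and 48 in LV ChP (331 and 155 with TMM), 1316 and 426 in 4V ChP (829 and 725), 28 and 10 in Otx2 (+/AA) (25 and 25), 183 and 294 between the mutants (199 and 194), 252 and 1222 between ventricles (504 and 579) and 165 and 93 for the model interaction, where 1 member, *Apod*, was called (adjusted p 0.0334).

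Pool letters were not taken to pair the pools. The same-letter correlation of deviations was highest in Otx2 (+/-), at 0.38, and 0.19 in 4V ChP. It was -0.15 in LV ChP, 0.087 in Otx2 (+/AA), 0.11 between the mutants and 0.098 between ventricles, with 2 pools a group. A shared effect of the letter was not tested apart from the block. The replicate block called 5 members in 4V ChP, with *Apoe* (adjusted p 3.63e-06) and *Clu* (1.86e-05) added, 6 in Otx2 (+/-), with *Apoc1*, *Lrp8* and *Scarb1* added, 2 in Otx2 (+/AA), *Apoe* (adjusted p 0.000174) and *Clu* (0.0047), and 7 between ventricles, with *Apoe* (0.0177), *Clu* (0.00238), *Lrp1* (0.0467), *Sorl1* (0.0226) and *Scarb1* (0.0167) added, and over all genes 3114, 2539, 549 and 2288, with 2 for the ventricle interaction. With the letters crossed, chosen after seeing the data, the block called 1012 genes and 3 members in LV ChP.

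With files joined as attached, where both pools of a group hold runs of the same 2 libraries, 6709, 8742, 4718, 5258 and 4688 genes and 8, 10, 7, 7 and 9 members were called in LV ChP, 4V ChP, between ventricles and for the ventricle and model interactions. Directions turned in LV ChP for *Apoe* (0.23), *Apoc1* (0.11), *Clu* (0.35), *Lrp1* (-0.22), *Vldlr* (0.37) and *Sorl1* (-0.22), in 4V ChP for *Apoe* (0.81), *Apoc1* (1.08), *Clu* (0.82), *Lrp1* (-0.39), *Lrp8* (-0.15), *Vldlr* (0.38), *Sorl1* (-0.75) and *Scarb1* (1.02), for the ventricle interaction of *Vldlr* (-0.016) and *Sorl1* (0.53) and the model interaction of *Vldlr* (0.63).

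Other reversals were of uncalled values: *Lrp8* without a filter in LV ChP (-0.0032) and between ventricles (0.010), there also summed (0.055); *Lrp2* in Otx2 (+/AA) with total counts (0.096) and summed (0.0080); *Lrp1* there under the block (-0.0022) and between the mutants with total counts (-0.050). Over omissions of a pool, ranges crossed 0 in LV ChP for *Lrp1* (-0.032 to 0.28), *Lrp8* (-0.057 to 0.071) and *Scarb1* (-0.047 to 0.35), in 4V ChP for *Apoc1* (-0.78 to 0.39), *Lrp1* (-0.18 to 0.33) and *Lrp8* (-0.048 to 0.18), in Otx2 (+/-) for *Apod* (-0.094 to 0.39) and *Lrp2* (-0.69 to 0.18), in Otx2 (+/AA) for *Apoc1* (-0.55 to 0.12), *Lrp1* (-0.36 to 0.37), *Lrp2* (-0.18 to 0.13), *Sorl1* (-0.12 to 0.34) and *Scarb1* (-0.14 to 0.24), between the mutants for *Lrp1* (-0.28 to 0.44), *Lrp2* (-0.67 to 0.21) and *Vldlr* (-0.19 to 0.11), between ventricles for *Lrp8* (-0.092 to 0.076), and for the ventricle interaction of *Sorl1* (-0.20 to 0.12).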
